A study of Mus musculus with 14 samples.

Results

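The binding sites of the GATA factors and of PU.1 were set against each other in hematopoietic progenitors (HP), as mapped by ChIP-seq, in which DNA bound by a factor is pulled down with an antibody and sequenced. The GATA sites were the union of the GATA1 list (250 peaks) and the GATA2 list (530 peaks), and the PU.1 sites were the list obtained with an antibody against the product of Spi1 (10943 peaks). Peaks that overlapped by at least 1 bp were joined, which gave 11498 regions. A separate joining of all 14 lists of the series gave 117293. Of the 11498 regions, 556 held GATA peaks alone (GATA only), 120 held both (shared) and 10822 held PU.1 peaks alone (PU.1 only). The cells came from 1 mouse embryonic stem cell line of strain 129, carried a GFP reporter of Brachyury and were sorted after culture as CD41+ cells. No treatment or allele set the groups apart, since each group was 1 antibody in the same population. Lists from macrophages (MAC, sorted as CD11b+ and grown from the CD41+ cells) and the HP lists of GFI1B, RUNX1 and C/EBPβ were used for comparison. Every list was 1 sample with no replicate, so each test below compares lists of regions and not conditions, and its p carries no spread between cultures. CD41+ cells are a mixed population, so whether GATA factors and PU.1 sat on the same DNA molecules of a shared region, or in different cells, cannot be told apart. Peaks were called with a p-value cutoff that was picked by eye for each list and was stricter for GATA1 than for GATA2 and PU.1, so the number of sites of a factor is no measure of its binding.

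GATA1 and GATA2 are zinc finger factors that read the same short sequence. GATA2 is known for its role in stem and progenitor cells, and GATA1 for driving erythroid, megakaryocyte and mast cell genes, often beside TAL1 and the bridging protein LMO2. PU.1 is an ETS factor that macrophages, granulocytes and B cells need. GATA1 and PU.1 bind each other and hold back each other's genes, which has made the pair a textbook case of 2 factors that set blood lineages apart. The question asked here was how far the sites of both kinds of factor coincide in progenitors, and which genes lie beside them.

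The sites shown first were picked because they carry the sequences on which the classes differ, so they are not typical regions. Neither the GATA nor the PU.1 consensus, given next, was held by 50.4% of GATA only, 47.5% of shared and 52.1% of PU.1 only regions. The GATA consensus was AGATAAC or AGATAAG, the PU.1 consensus GAGGAAGT, and the joint E-box and GATA element, which TAL1 and GATA1 bind as a complex, CTG followed by 7 or 8 bases and AGATAA. All were searched on both strands, so that a GATA match on the lower strand reads CTTATCT or GTTATCT, and the joint element overlaps the GATA consensus where AGATAA is followed by C or G. The sequences are the upper strand of GRCm38 (RefSeq, the C57BL/6J strain, while the cells were of strain 129), with capitals for every match to 1 of the 3 elements. GATA only sites at an erythroid enzyme gene, a GATA cofactor gene, an erythroid RING finger gene, a red cell skeleton gene and a TAL1 partner gene were these:
Alas2, chrX:150549814-150549910: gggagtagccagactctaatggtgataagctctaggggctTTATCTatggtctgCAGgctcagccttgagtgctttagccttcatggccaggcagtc
Zfpm1, chr8:122282910-122282996: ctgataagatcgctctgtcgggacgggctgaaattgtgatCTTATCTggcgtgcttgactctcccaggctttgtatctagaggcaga
Trim10, chr17:36869370-36869456: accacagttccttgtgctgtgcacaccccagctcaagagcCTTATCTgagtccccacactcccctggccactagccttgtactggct
Sptb, chr12:76673863-76673959: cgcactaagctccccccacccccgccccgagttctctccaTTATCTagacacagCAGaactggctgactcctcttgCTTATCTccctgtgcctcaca
Lmo2, chr2:103893771-103893866: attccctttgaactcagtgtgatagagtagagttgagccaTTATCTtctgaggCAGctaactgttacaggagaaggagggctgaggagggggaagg
Shared sites in which both consensus sequences lay close together are shown for Kdr, the one gene of the lists below with such a site, and for Crlf3 and Zfp664, which were picked after the spacings were seen:
Kdr, chr5:75962358-75962472: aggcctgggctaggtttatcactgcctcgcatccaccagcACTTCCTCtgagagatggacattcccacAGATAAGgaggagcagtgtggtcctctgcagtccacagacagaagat
Crlf3, chr11:80081214-80081321: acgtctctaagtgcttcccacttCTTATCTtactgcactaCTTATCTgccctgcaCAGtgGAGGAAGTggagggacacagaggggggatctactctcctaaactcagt
Zfp664, chr5:124929567-124929672: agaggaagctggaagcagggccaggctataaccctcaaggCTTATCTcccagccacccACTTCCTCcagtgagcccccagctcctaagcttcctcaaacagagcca
Pairs of a GATA only and a PU.1 only site beside the same gene are shown for Cbfa2t3, which encodes the corepressor ETO2, and for Cebpe, a granulocyte factor, with the GATA site first in each pair:
Cbfa2t3, chr8:122685701-122685787: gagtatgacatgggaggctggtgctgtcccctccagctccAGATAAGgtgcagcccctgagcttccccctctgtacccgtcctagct
Cbfa2t3, chr8:122682633-122682720: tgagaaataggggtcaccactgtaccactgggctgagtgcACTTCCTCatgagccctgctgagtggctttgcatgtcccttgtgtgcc
Cebpe, chr14:54705998-54706094: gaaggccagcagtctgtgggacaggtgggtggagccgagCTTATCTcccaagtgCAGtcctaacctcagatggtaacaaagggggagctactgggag
Cebpe, chr14:54713056-54713143: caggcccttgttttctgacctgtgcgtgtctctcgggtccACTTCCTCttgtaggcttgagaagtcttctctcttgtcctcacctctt

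Most GATA regions in HP lay apart from PU.1. Of the 676 GATA regions, 17.8% overlapped a PU.1 peak (exact Clopper-Pearson 95% interval 14.9 to 20.8%, counting error only), and these were 1.10% of the 10942 PU.1 regions. By list, 15.6% of the GATA1 peaks and 19.8% of the GATA2 peaks fell in shared regions. At the edge of the rule, the least overlap inside the shared class was 5 bp, near Atp6v0b, and the smallest gap outside it was 12 bp, near Cox4i2. The share was 12.1% when peak centres had to lie within 100 bp. It was 5.47% when only the first 2736 peaks of the PU.1 list, in file order, were used, an alternative chosen after seeing the data. The order of the list is not described in the sources used here, but the share of peaks with the PU.1 consensus fell along it, from 52.6% in the first 2188 peaks to 36.1% in the last 2189.

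The GATA lists overlapped PU.1 unequally. Regions with a GATA1 peak but no GATA2 peak were shared with PU.1 in 15 of 146 cases (10.3%, interval 5.87 to 16.4%). Regions with GATA2 alone were shared in 81 of 426 (19.0%, 15.4 to 23.1%), and regions with both in 24 of 104 (23.1%, 15.4 to 32.4%). The difference between GATA1 alone and GATA2 alone passed Fisher's exact test (two-sided, adjusted p = 0.0256 over the 42 tests made here). The difference between both and GATA1 alone also passed (exact test, adjusted p = 0.0141), but not without the 5 regions found in 8 or more of the 14 lists, all of which were shared (adjusted p = 0.104). That between both and GATA2 alone did not pass (exact test, adjusted p = 0.421). The GATA consensus was held by 47.3% of the regions of GATA1 alone, 45.5% of those of GATA2 alone and 51.0% of those with both. The cutoffs of the 2 lists differed, and their part in the sharing was not tested.

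The classes differed sharply in sequence. The GATA consensus stood in the central 400 bp of 47.3% of GATA only regions (43.1 to 51.5%) and of 44.2% of shared regions (35.1 to 53.5%), against 9.48% of PU.1 only regions (8.94 to 10.0%). In windows of equal width 2000 bp to either side the shares were 8.18, 7.92 and 8.65%. Both differences from PU.1 only passed Fisher's exact test (adjusted p = 3.3e-106 for GATA only and 3.94e-22 for shared), while shared and GATA only regions did not differ past the threshold (adjusted p = 0.638). The joint E-box and GATA element was held by 16.0% of GATA only, 9.17% of shared and 1.40% of PU.1 only regions, with flanks at 1.44, 0.417 and 1.10%. GATA only and shared regions both exceeded PU.1 only regions (exact test, adjusted p = 7.24e-55 and 4.32e-06). Between shared and GATA only regions the difference missed the threshold (exact test, adjusted p = 0.104), though it passed in distal regions alone and in a window of 200 bp (adjusted p = 0.0418 and 0.0291).

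The PU.1 consensus showed the opposite order and set the shared regions between the other classes. It was held by 42.3% of PU.1 only regions (41.4 to 43.2%), 24.2% of shared regions (16.8 to 32.8%) and 3.42% of GATA only regions (2.07 to 5.29%), with flanks at 2.95, 0.833 and 2.34%. All 3 pairs of classes differed (exact test, adjusted p = 6.25e-96 for GATA only against PU.1 only, 1.89e-11 for shared against GATA only and 1.32e-04 for shared against PU.1 only). The last of these, a difference of -18.1 percentage points, did not pass with the first 2736 PU.1 peaks (-11.4 points, exact test, adjusted p = 0.314). Within the 120 shared regions, 34 held the GATA consensus without the PU.1 consensus, 10 held the PU.1 consensus without the GATA consensus, 19 held both and 57 held neither. Both together were found in 1.08% of GATA only and 3.88% of PU.1 only regions. The ETS and IRF element (GGAANNGAAA) was rarer in GATA only than in PU.1 only regions, at 3.06 against 6.79% (exact test, adjusted p = 5.04e-04). The RUNX (TGTGGTT), C/EBP and AP-1 sequences did not pass in any pair of classes. RUNX was held by 12.4% of GATA only, 15.8% of shared and 12.6% of PU.1 only regions, C/EBP by 1.80, 5.00 and 3.08%, and AP-1 by 7.91, 9.17 and 9.90%.

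**Figure D1:**
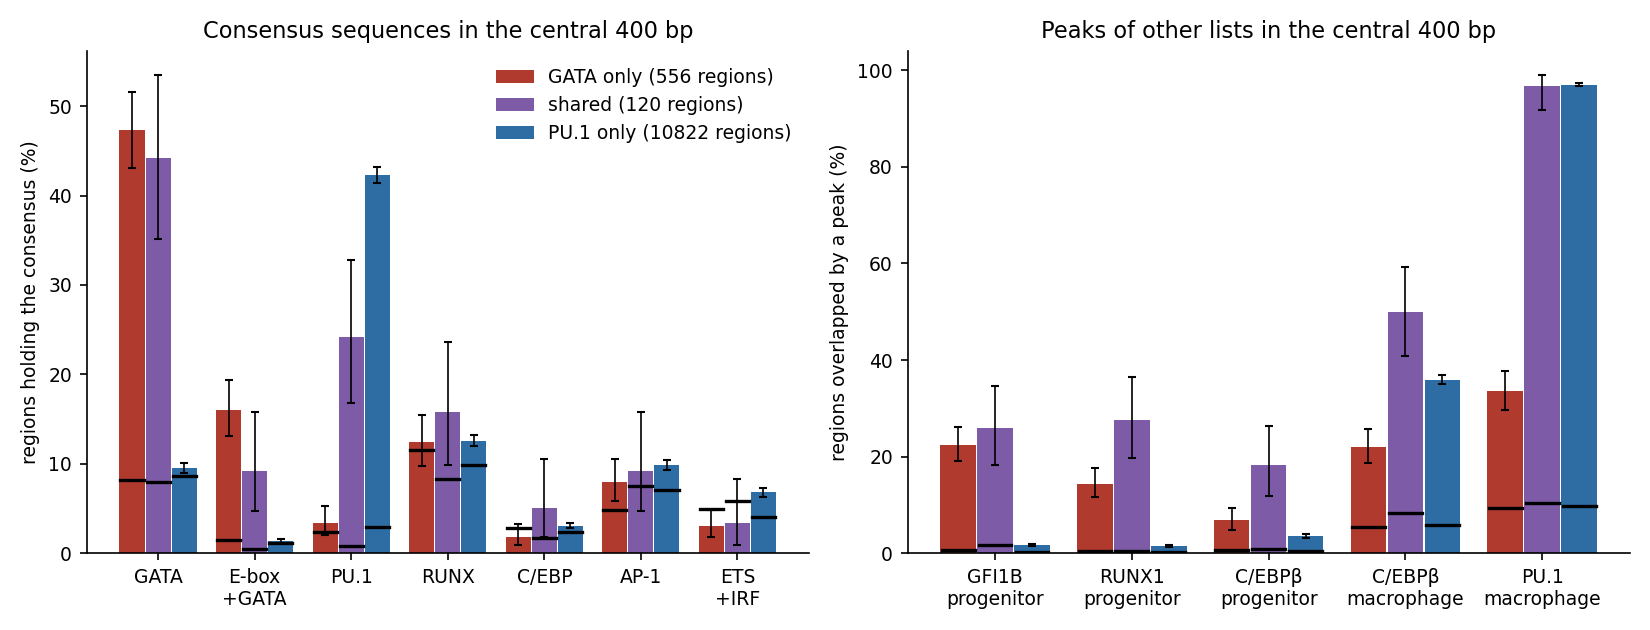
Share of regions (%) in the GATA only (556), shared (120) and PU.1 only (10822) classes that held each consensus in the central 400 bp (left) or were overlapped there by a peak of another list (right). Error bars are exact 95% intervals for counting error, and black lines give the share in windows 2000 bp to either side. Shared regions stood close to GATA only regions for the GATA consensus (44.2 against 47.3%) and to PU.1 only regions for PU.1 peaks in macrophages (96.7 against 97.0%).

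The matches were centred on the peaks. In the 50 bp on either side of the centre, 17.8 and 18.7% of GATA only regions held a GATA consensus, falling to 5.04 and 5.76% in the next 50 bp. PU.1 only regions held the PU.1 consensus in 18.1 and 21.1% at the centre and in 1.77 and 1.99% in the next 50 bp. In shared regions the GATA consensus peaked lower, at 15.0% in the 50 bp to the right of the centre, and the PU.1 consensus at 8.33% there. The centre of a shared region is that of the joined peaks, and the GATA and PU.1 peak centres were a median of 68 bp apart (quartiles 31 and 131 bp, highest 395 bp). Centres lay within 50 bp of each other in 45 of the 120 regions and 51 to 100 bp apart in 37. In the 19 shared regions with both consensus sequences, the closest GATA and PU.1 matches were a median of 63.5 bp apart between their centres. The lowest spacing, 18.5 bp, was that of the Zfp664 site printed above, and the Crlf3 and Kdr sites had spacings of 20.5 and 27.5 bp.

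**Figure D2:**
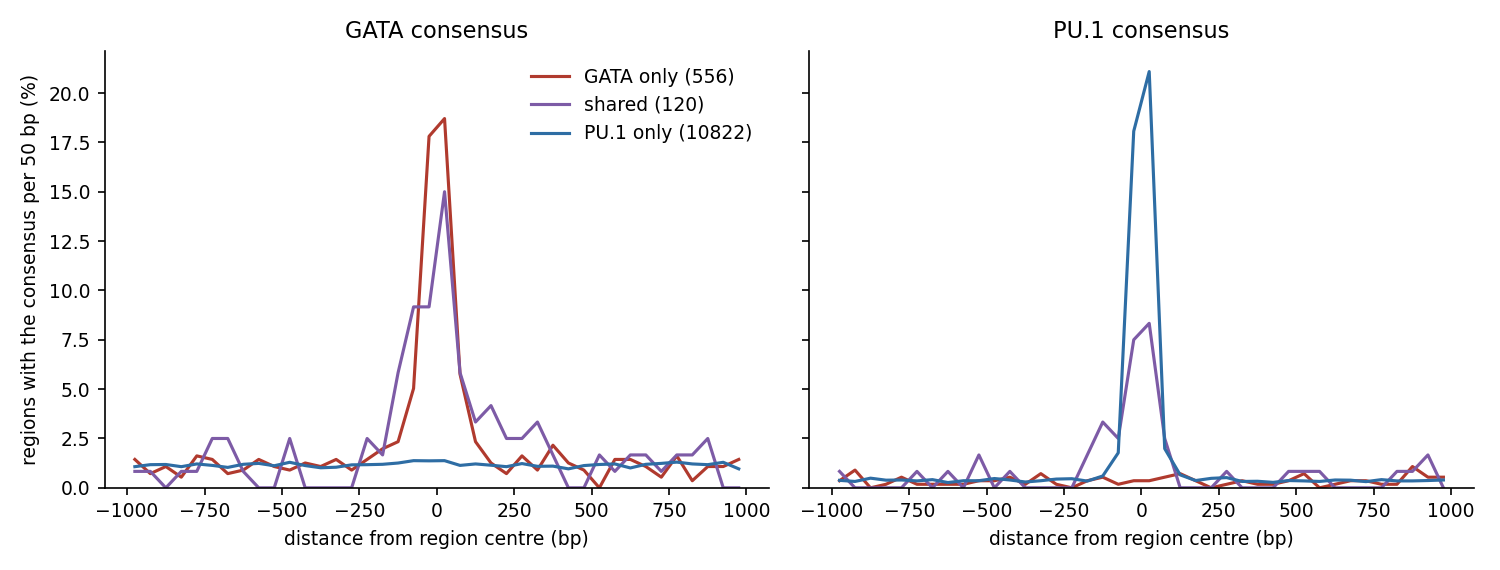
Share of regions (%) with a GATA consensus (left) or a PU.1 consensus (right) in each 50 bp bin, by distance from the region centre (bp), for the 3 classes with their numbers of regions. At the centre, GATA only regions rise for GATA (to 18.7%), PU.1 only regions for PU.1 (to 21.1%) and shared regions for both. PU.1 only regions are slightly higher at the centre for GATA too, at no more than 1.38% in any bin.

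Peaks of other HP factors fell in a larger share of GATA than of PU.1 only regions. GFI1B, a repressor that GATA1 induces in red cell precursors, had a peak in 22.5% of GATA only, 25.8% of shared and 1.66% of PU.1 only regions. RUNX1, which is needed for blood cells to emerge from endothelium, had one in 14.4, 27.5 and 1.49%, and C/EBPβ, a myeloid factor, in 6.83, 18.3 and 3.55%. In the flanks these shares were between 0.157 and 1.67% in every class. For each of the 3 factors both GATA only and shared regions exceeded PU.1 only regions (exact test, adjusted p from 1.39e-84 to 6.21e-04). Shared exceeded GATA only regions for RUNX1 (exact test, adjusted p = 0.00211) and C/EBPβ (adjusted p = 5.77e-04), but not for GFI1B (adjusted p = 0.568). With the first 2736 PU.1 peaks the 2 differences between shared and GATA only regions fell from 13.1 to 5.19 points for RUNX1 and from 11.5 to 4.91 for C/EBPβ and no longer passed (exact test, adjusted p = 0.521 for each), nor did that of C/EBPβ between shared and PU.1 only (8.62 points, adjusted p = 0.0818). The HP lists of GFI1B, RUNX1 and C/EBPβ held 2018, 977 and 2716 peaks.

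The macrophage lists separated the classes another way. The PU.1 list of macrophages, with 82866 peaks, covered 97.0% of PU.1 only and 96.7% of shared regions (exact test, adjusted p = 0.825) but 33.6% of GATA only regions (29.7 to 37.7%). The last share was below both others (exact test, adjusted p = 1.1e-40 against shared regions and too small for the computer to hold against PU.1 only regions). GATA only regions were set apart by having no PU.1 peak in HP. A lower share for the same factor in macrophages was thus largely built into the classes, and these p-values are not a separate result. The flanks of the GATA only regions gave 9.35% (7.71 to 11.2%). The 187 GATA only regions under a macrophage PU.1 peak held the PU.1 consensus in 6.42% (3.36 to 10.9%) and the remaining 369 in 1.90% (0.766 to 3.87%). They were within 2 kb of a coding start site in 38.5 and 20.3%. The C/EBPβ list of macrophages, with 55471 peaks, covered 21.9% of GATA only, 50.0% of shared and 35.9% of PU.1 only regions, and all 3 pairs passed (exact test, adjusted p = 1.71e-11, 0.00397 and 8.71e-09). The pair of shared and PU.1 only regions did not pass with centres within 100 bp (a difference of 7.94 percentage points, exact test, adjusted p = 0.248) or with the first 2736 PU.1 peaks (11.3 points, adjusted p = 0.314), against 14.1 points above. The first 2736 peaks leave fewer shared regions (5.47% of the GATA regions), so a call lost there does not show that the difference went.

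GATA only regions lay at promoters more often than PU.1 only regions. Their centre was within 2 kb of the start site of a coding transcript in 26.4% (22.8 to 30.3%), against 18.2% of PU.1 only regions (17.5 to 18.9%) and 23.3% of shared regions (16.1 to 31.9%). GATA only against PU.1 only passed (exact test, adjusted p = 8.31e-06), and shared regions differed from neither class past the threshold (adjusted p = 0.223 against PU.1 only and 0.642 against GATA only). The median distance to the nearest coding start site was 11414 bp for GATA only, 16862 bp for shared and 18754 bp for PU.1 only regions. The median GC content of the central 400 bp was 52.0, 51.9 and 48.5%, and its part in the promoter share was not tested.

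Each region was then joined to the coding gene with the nearest start site, which does not show that the region acts on that gene. Of 21000 coding genes, 617 were nearest to a GATA region (2.94%) and 6420 to a PU.1 region (30.6%). Against these backgrounds, 8 of 45 erythroid genes were reached by GATA (17.8%) and 11 by PU.1 (24.4%), 6 of 33 megakaryocyte genes by GATA (18.2%) and 16 by PU.1 (48.5%), and 1 of 60 myeloid genes by GATA (1.67%) and 43 by PU.1 (71.7%). Both factors reached a large share of 37 genes of blood regulators, 12 by GATA (32.4%) and 33 by PU.1 (89.2%). These genes also had the widest room, with a median of 230 kb between the neighbouring start sites of other genes, against 97.4 kb over all coding genes, 77.4 kb for erythroid and 87.7 kb for myeloid genes. A wide gene is more easily the nearest one, and its part in these counts was not tested.

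**Figure D3:**
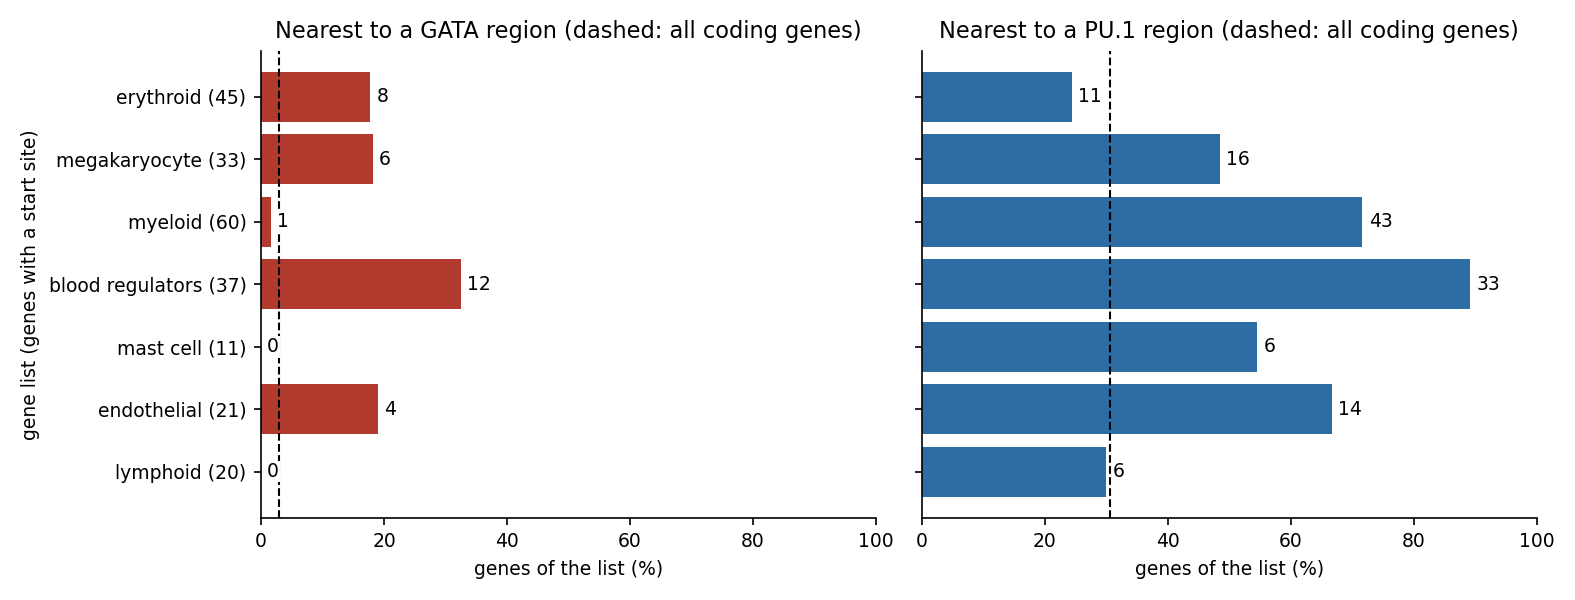
Share (%) of the genes of 7 lists whose start site was the nearest to a GATA region (left) or a PU.1 region (right), with the number of genes at each bar and all coding genes as the dashed line (2.94 and 30.6%). The erythroid list stood above the line for GATA (17.8%) and the myeloid list above it for PU.1 (71.7%), while the erythroid list for PU.1 (24.4%, 11 genes) and the myeloid list for GATA (1.67%, 1 gene) lay near the line.

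The erythroid sites were sites of GATA1. All 9 GATA regions nearest to an erythroid gene held a GATA1 peak and 2 a GATA2 peak, whereas over all 676 GATA regions 250 held GATA1 (37.0%) and 530 GATA2 (78.4%). With the GATA2 list alone, 1 of the 45 erythroid genes was reached, a share near that of all coding genes (489 of 21000). Alas2, the first enzyme of haem synthesis in red cells, had a GATA1 site in an intron, 2405 bp downstream of the start site (chrX:150549622-150550021), with the joint E-box and GATA element. Cpox and Ppox, later enzymes of the pathway, had GATA1 sites with the GATA consensus at the promoter, 10 and 158 bp from the start site. Abcb10, a mitochondrial transporter of haem-making cells, had a shared region 5806 bp upstream (chr8:123988659-123989196) with the GATA consensus alone.

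The other erythroid genes encode membrane and signalling proteins. Sptb, the β-spectrin of the red cell skeleton, had an intronic GATA1 site with 2 marked elements 36605 bp downstream of its start site. Gypc, which encodes glycophorin C, had 2 intronic regions with both GATA1 and GATA2 peaks. Trim10, a gene of late red cell development, had a GATA1 site with the consensus 147 bp upstream, and Epor, the erythropoietin receptor, had one without it in an intron, 924 bp downstream. Of these 8 genes, Ppox and Abcb10 were also nearest to a PU.1 only region. No globin gene of the list was nearest to a GATA region, nor was the erythroid factor gene Klf1. Reads were kept only where they mapped to 1 place, which leaves identical stretches of duplicated globin genes uncovered, and the part of this was not tested.

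In the megakaryocyte list, 3 of the 6 GATA regions were shared with PU.1 and in the erythroid list 1 of 9, beside 17.8% of all 676 GATA regions, counts too small for a difference to be read from them. Itga2b encodes CD41, the antigen by which the cells were sorted, and its promoter held a shared region 332 bp upstream of the start site (chr11:102469984-102470445), with GATA2 and PU.1 peaks 62 bp apart and the PU.1 but not the GATA consensus. Fermt3, an activator of platelet integrins, had a shared region with GATA1 in an intron 1418 bp downstream, and F5, the gene of coagulation factor V, one with GATA2 16389 bp upstream, in an intron of Selp. Neither of these 2 held a consensus of either factor. Gp1ba, a subunit of the receptor for von Willebrand factor, had a GATA only region with GATA1 and GATA2 78 bp upstream of its start site. F2rl2, a thrombin receptor gene, and Thbs1, which encodes a platelet granule protein, had distal GATA only regions with the consensus, 25225 and 45297 bp upstream, and PU.1 only regions elsewhere. Of the 33 genes of the list, 11 were reached by PU.1 and not by GATA. Over all 21000 coding genes, 6420 were reached by PU.1 and 617 by GATA, so the 11 are not read as a trait of the list. Among them was the chemokine gene Pf4, with 2 PU.1 only regions at its promoter.

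The share of myeloid genes reached was above that of all coding genes for PU.1 (71.7 against 30.6%) and near it for GATA (1 gene, 1.67 against 2.94%). Ly86, which encodes a partner of a relative of the Toll-like receptors, was the one gene of this list nearest to a GATA region. That region lay 164277 bp from its start site, so no myeloid gene remained when regions had to be within 100 kb or within 10 kb of the gene. Under these 2 rules GATA reached 2.69 and 3.25% of all coding genes. Ly86 also had 6 PU.1 only regions, 89737 to 180977 bp away. In all, 93 PU.1 only regions were nearest to a myeloid gene, of which 26.9% were at a promoter, 40.9% held the PU.1 consensus and 96.8% were covered by a PU.1 peak in macrophages, against 18.2, 42.3 and 97.0% of all PU.1 only regions. Lyn, a kinase of the Src family, had the most, with 7, of which 1 was centred 2 bp from the start site and 3 lay in the gene further downstream. Csf1r, the receptor of the macrophage growth factor, had 4, the nearest at 249 bp. Itgb2, the β chain of the leukocyte integrins, also had 4, and 2 of these were at its promoter, 73 and 764 bp from the start site, the first with the PU.1 and RUNX sequences. Mpo, the peroxidase of granules, had 4 as well, with a promoter site at 230 bp that held the PU.1, GATA and RUNX sequences and overlapped a GFI1B peak but no GATA peak. Msr1, a scavenger receptor, had 4 distal regions, at 22674 to 286302 bp. Ncf1 and Ncf4, which encode subunits of the phagocyte oxidase, had 4 each too, of which 1 at each gene was at a promoter.

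Among the blood regulators, all 12 genes reached by GATA were also reached by PU.1, beside 33 of the whole list of 37 (89.2%). At 9 of the 12 the sites were separate. Zfpm1 and Cbfa2t3 had 5 GATA regions each, the most of any coding gene. The 5 GATA only regions of Zfpm1, which encodes the GATA cofactor FOG1, all lay in its introns, 759 to 39713 bp downstream of the start site, and each held the GATA consensus. Its 3 PU.1 only regions lay among and before them, at 17727 bp upstream and at 1371 and 32964 bp downstream, and none held the PU.1 consensus. Cbfa2t3 had 4 GATA only regions, 2 of them side by side 20809 and 21441 bp upstream with the joint E-box and GATA element and with GATA1, GATA2 and GFI1B peaks. It also had a shared region 1840 bp upstream of its start site with GATA2, PU.1, GFI1B and RUNX1, and 2 PU.1 only regions in introns.

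Runx1 had both arrangements. A GATA only region with GATA1 and GATA2 lay 3704 bp downstream of its first coding start site (chr16:92822115-92822625) and a PU.1 only region with the PU.1 and RUNX sequences lay 564 bp beyond it, between their centres (chr16:92821606-92822005). A shared region of GATA2 and PU.1 lay 24306 bp downstream in an intron (chr16:92801508-92802027), where RUNX1 and C/EBPβ also had peaks, and 7 more PU.1 only regions were spread around the gene. Tal1, Nfe2 and Gfi1 had a shared region and no GATA only region. That of Tal1, the E-box partner of the GATA factors, was centred 420 bp downstream of the start site and was found in 9 of the 14 lists. That of Nfe2, which encodes the p45 factor of globin and platelet genes, lay 134 bp upstream, and that of Gfi1 33530 bp upstream in an intron of Evi5, in 11 lists. Lyl1, a relative of Tal1, had a shared region 228 bp downstream of its start site and 2 GATA only regions with GATA1. The remaining regulator genes had 1 GATA only region each and PU.1 only regions elsewhere. Lmo2 had a GATA1 site with the joint element 64052 bp upstream and Cebpe a site of GATA1 and GATA2 with the same element 6161 bp downstream, 7071 bp from a PU.1 site at its promoter. Hhex, a homeobox gene, had a site of both GATA factors 931 bp downstream. The ETS gene Erg and the AP-1 gene Jun had sites of GATA2 with the GATA consensus, 12577 and 104728 bp upstream.

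**Figure D4:**
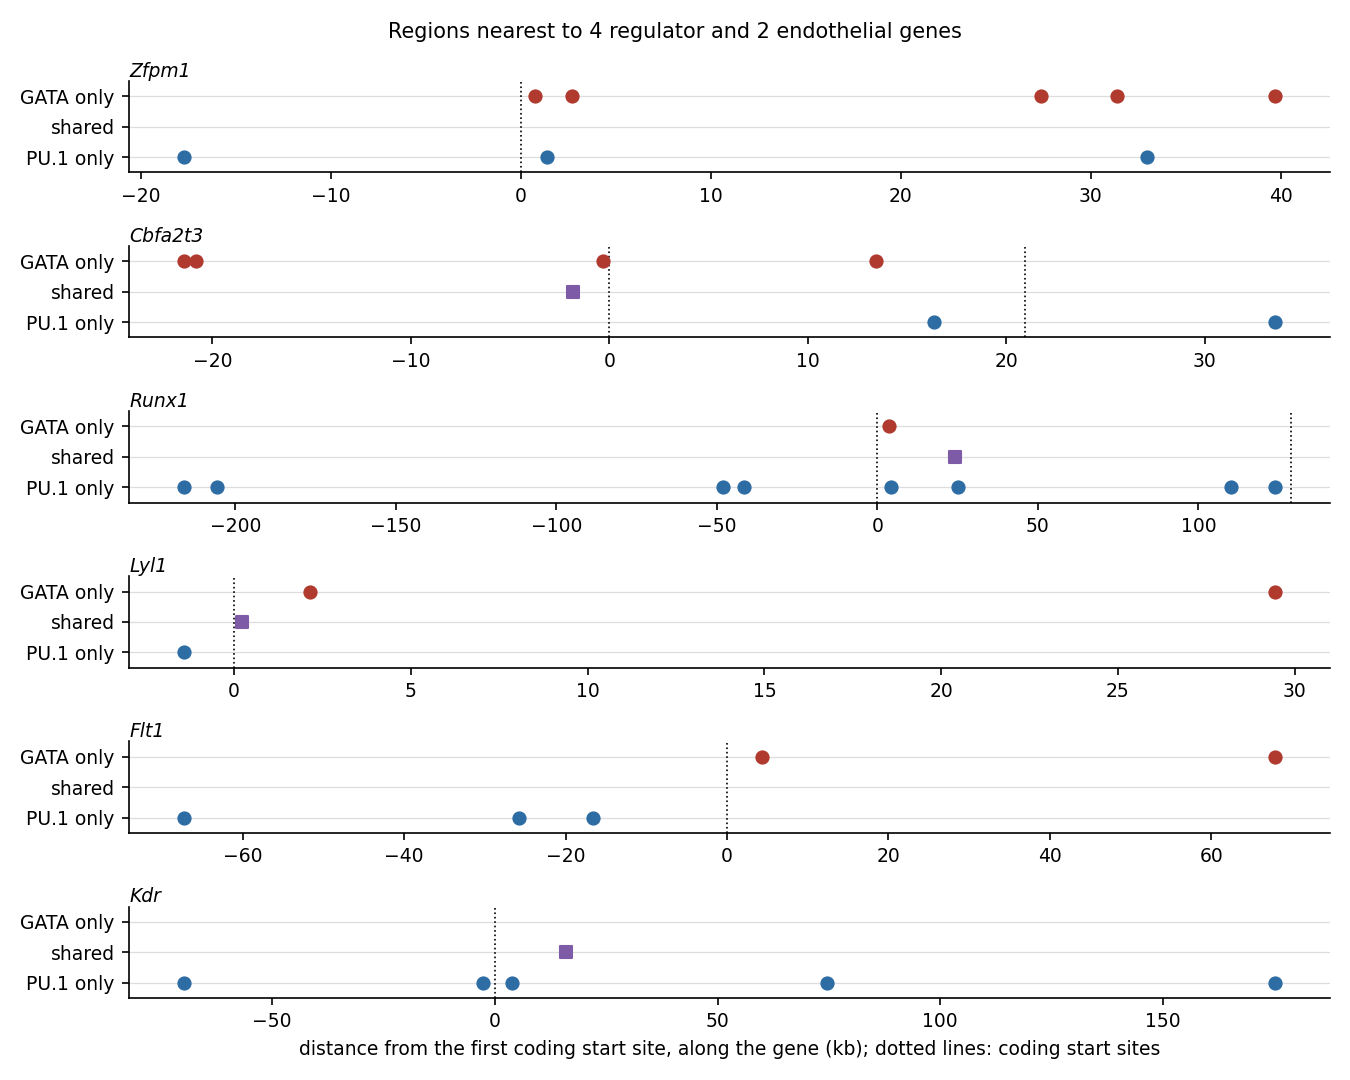
Regions nearest to 4 regulator genes (Zfpm1, Cbfa2t3, Runx1 and Lyl1) and 2 endothelial genes (Flt1 and Kdr), by distance of the region centre from the first coding start site along the gene (kb). Points stand for single regions of the GATA only, shared and PU.1 only classes, and dotted lines for coding start sites. GATA only and PU.1 only regions interleave at Zfpm1, with 5 and 3 regions, and Kdr had 1 shared and 5 PU.1 only regions.

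The genes of the factors themselves are given for reference, since most coding genes had no GATA region. No region of any class was nearest to Gata1 or Gata2, and within 100 kb of their start sites there were no GATA regions and 1 and 2 PU.1 only regions. Spi1 was nearest to 2 PU.1 only regions, 1 of them at its promoter, and had 6 within 100 kb and no GATA region there. Gfi1b also had 6 PU.1 only regions within 100 kb and was nearest to 1 of them, centred 3 bp from its start site, which a GFI1B peak also covered. A group of 3 GATA only regions lay 19627, 22547 and 23809 bp downstream of the Gfi1b start site in intergenic sequence, each with a GFI1B peak and 2 with a RUNX1 peak. The nearest start site to them was that of Gtf3c5, which therefore counted among the 10 genes with the most GATA regions. The others of these 10 were Gse1 and Sfi1 with 4 each, Btg2, Esp38 and Lyl1 with 3, and Adgrg1 and Ahi1, which were the first by name of 37 genes with 2. The 3 regions of Esp38 lay over 100 kb from its start site and held neither the GATA nor the PU.1 consensus, and 1 of them was found in 11 lists.

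Markers of other cell types were read in the same way. In the endothelial list, 4 of 21 genes were reached by GATA (19.0%) and 14 by PU.1 (66.7%), and all 5 GATA regions held GATA2 and none GATA1, beside 78.4 and 37.0% of all GATA regions. With the rule of at most 10 kb outside the gene, GATA reached 2 endothelial genes, beside 3.25% of all coding genes. The 5 regions were 2 intronic sites of Flt1 and a shared site in an intron of Kdr, the 2 receptors of vascular endothelial growth factor, and distal sites of Sox7 and Hey1, which encode endothelial and Notch-driven factors. The mast cell list (11 genes) and the lymphoid list (20 genes) held 0 genes reached by GATA, where the 2.94% of all coding genes amounts to less than 1 gene in either list. PU.1 reached 6 genes in each, 54.5% of the mast cell and 30.0% of the lymphoid genes, beside 30.6% of all coding genes. Within 100 kb of the start site, PU.1 reached 3 lymphoid genes, beside 28.3% of all coding genes. Kit, the stem cell factor receptor of progenitors and mast cells, was nearest to 1 PU.1 only region and to none with GATA.

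Separate sites at 1 gene were common among the genes that GATA reached. A GATA only and a PU.1 only region shared the nearest gene at 295 genes (1.4% of the 21000), which were 57.2% of the 516 genes nearest to a GATA only region, whereas 30.4% of all coding genes were nearest to a PU.1 only region. The share was alike for genes nearest to a GFI1B peak (56.9%), a RUNX1 peak (55.6%) and a C/EBPβ peak (60.7%) in HP. The 295 genes had a median of 230 kb between neighbouring start sites, against 173 kb for the 516 genes and 97.4 kb for all coding genes. At 270 of the 295 genes there was 1 GATA only region, and at 169 the PU.1 only regions outnumbered the GATA only regions. The closest pair of sites lay a median of 12027 bp apart, within 1000 bp at 19 genes, within 10000 bp at 133 and within 100000 bp at 275. Both sites were distal at 188 genes, GATA alone had a promoter site at 41, PU.1 alone at 51, and both had one at 15. With the first 2736 PU.1 peaks, 155 such genes were left (0.738% of all coding genes).

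Seen from the GATA side, the nearest PU.1 region was seldom next door. The centres of the 556 GATA only regions were a median of 25398 bp from the nearest PU.1 region, with quartiles of 7353 and 66506 bp. A PU.1 region lay within 1000 bp of 3.78% of them, within 10000 bp of 30.4% and within 100000 bp of 82.7%.

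**Figure D5:**
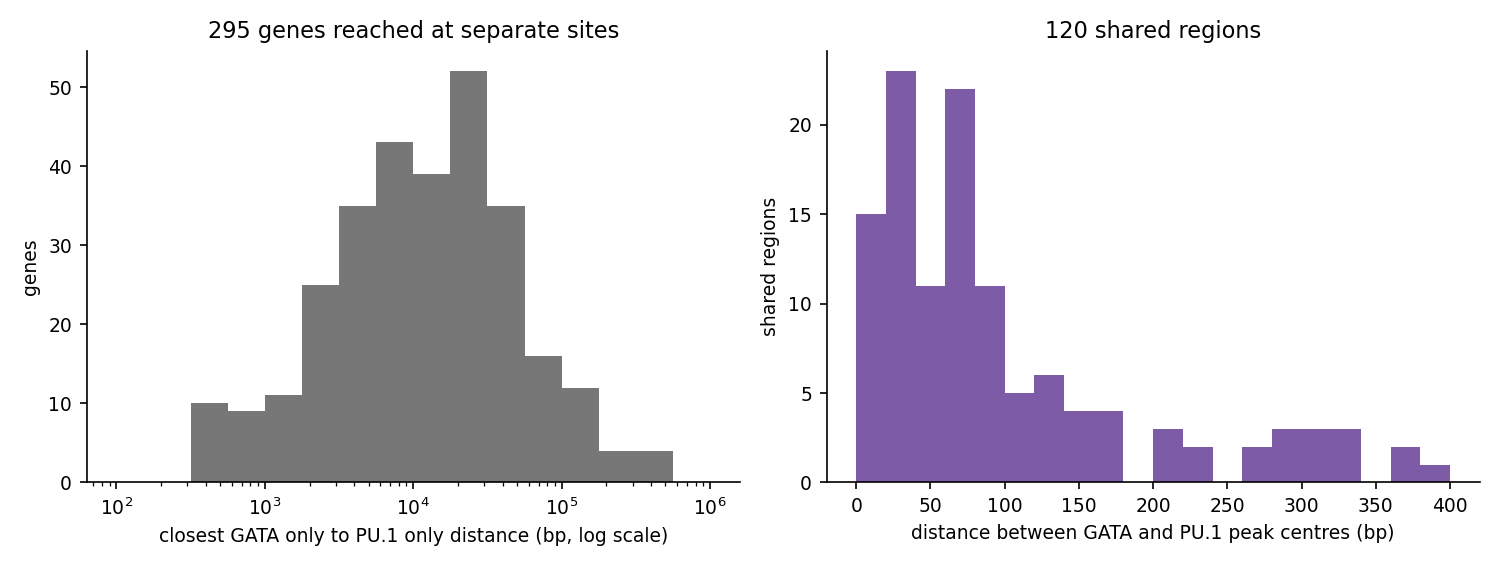
Left, distance between the closest GATA only and PU.1 only regions (bp, log scale) at the 295 genes reached by both at separate sites. Right, distance between GATA and PU.1 peak centres (bp) in the 120 shared regions. Separate sites were a median of 12027 bp apart and shared peaks a median of 68 bp apart.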

How the data were processed

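The members and the gene lists were chosen with earlier results of these data known. The deposited files give the start and end of each 400 bp peak in base pairs, with no score, count or p-value, so depth and read counts are not known here. According to the methods, the authors trimmed reads with CutAdapt, aligned them to mm10 with Bowtie, kept unique positions, removed duplicates with Picard, called peaks with MACS against input of the same stage and refined them with polyPeak. Versions are not given in the sources used here.

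Peaks were joined into regions at 1 bp of overlap. Consensus sequences and peaks of other lists were looked for in the 400 bp around each region's centre, in the RefSeq GRCm38 sequence, so that wide regions had no advantage. The further consensus sequences were TTGC followed by A or G, C or T and AA for C/EBP, and TGACTCA or TGAGTCA for AP-1. Regions were joined to the nearest of 26032 coding start sites (21000 genes). Ahsp and Tpsab1 of the gene lists had none and were left out. Class differences in the share of regions were put to a two-sided Fisher's exact test with Benjamini-Hochberg adjustment over the 42 tests and a threshold of 0.05, and lists of genes were described by counts beside all coding genes, with no test. The genes named are all listed genes nearest to a GATA region, the 6 myeloid genes with the most PU.1 only regions and the 10 coding genes with the most GATA regions, ties by name. Ncf1 and Ncf4 tied with the last 4 of those 6 and were added after their values were seen. Printed sequences reach 40 bases beyond the match. Alternatives changed the overlap, the window, the promoter distance, the transcripts, the consensus, the rule for genes and the regions or lists kept. Python 3.11.15, NumPy 2.4.6, SciPy 1.17.1, pysam and Matplotlib 3.10.9 were used, and the tests were tried on simulated data.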

Additional observations from a re-analysis of the deposited data

Results flagged for a closer look

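Peaks of the lists not used in the comparisons above also fell in these regions, in more regions than the 3 that a count of 0 allows. Among GATA only regions, the mesoderm C/EBPβ list overlapped 0.719% (4 regions), the hemangioblast C/EBPβ list 1.44% (8) and the macrophage RUNX1 list 0.719% (4). Among shared regions, the mesoderm, hemangioblast and hemogenic endothelium C/EBPβ lists overlapped 3.33, 4.17 and 3.33% (4, 5 and 4 regions). Among PU.1 only regions, these 3 lists overlapped 0.351, 0.231 and 0.0647% (38, 25 and 7), the mesoderm ELK4 list 0.434% (47), the hemangioblast GATA2 list 0.0370% (4) and the macrophage RUNX1 list 0.314% (34). There are no control samples for these overlaps, and their differences between classes were not tested.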

How the results depend on the processing

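The share of GATA regions that overlapped PU.1 moved beyond its interval with at least 200 bp of overlap (14.9%), with centres within 100 bp (12.1%) and with the first 2736 peaks of the PU.1 list (5.47%), and stayed within it with either GATA list alone, without regions of 8 or more lists and without regions of the mesoderm or hemangioblast lists. With those peaks, an alternative chosen after seeing the data, PU.1 reached 4 erythroid, 6 megakaryocyte, 17 myeloid, 21 regulator, 5 endothelial, 2 mast cell and 0 lymphoid genes, beside 10.8% of all coding genes, 155 genes (0.738%) were reached by both at separate sites, and the difference in the PU.1 consensus between shared and PU.1 only regions (-11.4 points, from -18.1) no longer passed with the fewer shared regions left. GATA1 alone reached 3 megakaryocyte and 0 myeloid genes, beside 232 of the 21000 coding genes. GATA2 alone reached 1 erythroid gene, beside 489 of the 21000. These single lists were also alternatives chosen after seeing the data. When a region had to be within 100 kb of the start site, or at most 10 kb outside the gene, GATA reached 0 myeloid genes. The shares of all coding genes reached under these rules were low too, at 2.69 and 3.25%. The list of the first 2736 PU.1 peaks and the single GATA lists hold fewer peaks by construction, and the region of Ly86 lies beyond 100 kb. The rule of 10 kb around the gene raised the coding genes reached by GATA to 682, and leaves out that region too. The remaining 100 comparisons of the main results with an alternative stayed on their side of the threshold, or within 1.5 times for counts. No called difference changed sign, but among the main results 2 differences that had not passed did. Shared minus GATA only regions for the GATA consensus went from -3.14 to 2.32 points with centres within 100 bp, and shared minus PU.1 only regions for macrophage PU.1 peaks from -0.31 to 0.63 points with the first 2736 PU.1 peaks. Outside the main results, further differences that had not passed changed sign too, among them some of the RUNX, C/EBP, AP-1 and ETS and IRF sequences. Replicates were not available to leave out, and no paired analysis was possible because each group held 1 list. Peaks without heights, unequal cutoffs and the nearest-gene rule limit all counts given here.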

Other observations

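The 5 regions found in 8 or more of the 14 lists were all shared by GATA and PU.1. The 14 lists include those that set the classes, and the full width of a region was searched. Shared regions, with a median width of 471 bp against 400 bp in each other class, therefore reach 8 lists more easily. The region near Rpp21 (chr17:36231208-36231622) was in 14 lists, those near Esp38 (chr17:39848405-39848980) and Gfi1 (chr5:107759068-107759601) in 11, that near Axin2 (chr11:109011664-109012102) in 10 and that at the Tal1 start site (chr4:115056474-115057218) in 9. The result above that depends on these regions is given there without them as well.

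The share of peaks with the factor's own consensus fell along the GATA lists too, in an order that the files do not describe. The share of GATA1 peaks with the GATA consensus was 54.0% in the first 50 peaks of the list and 38.0% in the last 50, and that of GATA2 peaks was 54.7 and 39.6% in the first and last 106.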
